A study of Mus musculus with 2 samples.

Results

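The receptor tyrosine kinase Kit, its ligand Kitl and the genes Ano1, Etv1 and Prkcq were examined in pooled whole intestines that were taken from B6NCrl mice at embryonic day 16.5. These 5 genes, out of 43346 gene identifiers in the deposited tables, were listed by name as genes of the interstitial cells of Cajal and were found through their Ensembl identifiers. Total RNA longer than 200 nt was sequenced in 2 libraries of a single group, each from 10 ng of RNA with ERCC spike-ins. Both pools were described as healthy and mixed males with females, and the labels name no treatment or altered allele. Replicate 2 came from 41 embryos, and no source used here gives the number for replicate 1. The pools are separate biosamples under the same donor identifier, so the spread between them may be partly technical. There was no second condition, age or region, so levels were described and no test between groups was possible. The libraries held 42040766 and 41480301 expected counts, which are estimated reads per feature.

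Interstitial cells of Cajal are the pacemaker cells of the gut muscle. They depend on KIT, a cell-surface receptor that is switched on by Kit ligand made by neighbouring cells, and mice with strong Kit or Kitl mutations lose many of these cells. ANO1 is the calcium-activated chloride channel that carries their pacemaker current. ETV1 is an ETS transcription factor that acts downstream of KIT in these cells, and PRKCQ is protein kinase C theta, a marker of them and of the tumours that resemble them. All of these genes are also used elsewhere: Kit in mast cells, melanocytes, germ cells and blood progenitors, Ano1 in secretory epithelia, Etv1 in neurons and Prkcq in T cells and skeletal muscle.

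Alternative splicing of Kit, Kitl and Ano1 inserts or removes short coding segments, and the results on transcripts turn on these. The sequences are coding strand, 5′ to 3′, from GENCODE M21 transcripts on mm10, with the alternative segment in capitals and 24 bases of the flanking exons in lower case. The Kit segment is the end of exon 9 of 21 in Kit-201 (chr5:75639147-75639158, plus strand), 12 bases that encode the residues GNNK outside the membrane. The Kitl segment is exon 6 of 10 in Kitl-202 (chr10:100080857-100080940, plus strand), 84 bases that hold the main site at which soluble ligand is cut from the cell surface. The Ano1 segment is exon 14 of 26 in the Ano1 transcript, ENSMUST00000121758.3 (chr7:144619475-144619486, minus strand), 12 bases of an intracellular loop whose presence affects how calcium and voltage open the channel. All 3 segments keep the reading frame. The Ano1 sequence without the exon is that of ENSMUST00000118556.4.
Kit-201: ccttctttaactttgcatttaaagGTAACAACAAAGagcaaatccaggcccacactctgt
Kit-204: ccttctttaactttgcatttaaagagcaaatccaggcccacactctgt
Kitl-202: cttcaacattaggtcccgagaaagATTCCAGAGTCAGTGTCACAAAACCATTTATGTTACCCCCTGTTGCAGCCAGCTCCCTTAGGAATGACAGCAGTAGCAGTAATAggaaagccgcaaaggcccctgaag
Kitl-201: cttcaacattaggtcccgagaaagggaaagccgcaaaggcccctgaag
Ano1 with the exon: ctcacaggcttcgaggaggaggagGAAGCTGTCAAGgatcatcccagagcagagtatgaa
Ano1 without the exon: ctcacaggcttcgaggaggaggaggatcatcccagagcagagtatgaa

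Ligand, receptor, channel and transcription factor were all expressed at levels of the same order, and only Prkcq was near the threshold of 1 TPM used for detection. Levels are in TPM, abundance per transcript length with equal totals for both libraries, and detection meant 1 TPM or more in each of the 2 libraries. All 5 genes were detected, against 62% of 21474 protein-coding genes. In bulk tissue, fewer cells of a type and less RNA per cell cannot be told apart. Kitl (ENSMUSG00000019966.13; mm10 chromosome 10, 100015630 to 100100416) stood at 19.1 TPM in replicate 1 and 18.03 in replicate 2, from 2596 and 2567 counts. Kit (ENSMUSG00000005672.8; chromosome 5, 75574916 to 75656722) stood at 12.7 and 13.1 TPM, from 1863 and 1848 counts. Both libraries put the ligand above its receptor. The channel gene Ano1 (ENSMUSG00000031075.13; chromosome 7, 144588549 to 144751974) stood at 16.8 and 17.2 TPM, from 1717 and 1727 counts. Etv1 (ENSMUSG00000004151.12; chromosome 12, 38779380 to 38870484) stood at 24.6 and 23.7 TPM, from 2094 and 1906 counts. Etv1 was thus the highest of the 5 genes in both libraries. Prkcq (ENSMUSG00000026778.9; chromosome 2, 11172108 to 11301222) stood at 1.29 and 1.12 TPM, from 121 and 112 counts, and its 2 values lie just above the detection threshold.

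**Figure D1:**
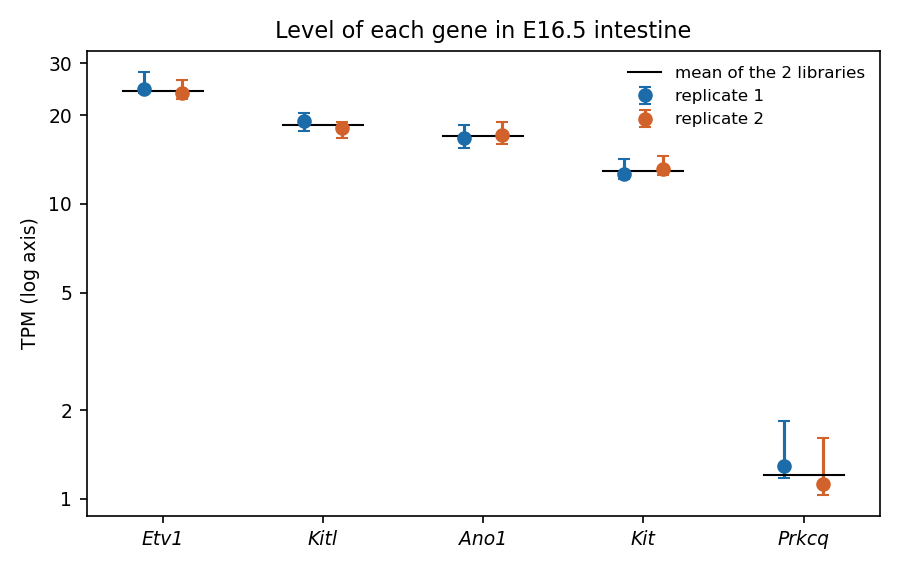
Level of each gene in TPM (log axis) in replicate 1 (blue) and replicate 2 (orange), with the mean of the 2 libraries as a black line and the quantifier's deposited interval of TPM, whose level is not stated, as bars. Etv1, Kitl, Ano1 and Kit sit between 12.7 and 24.6 TPM, and Prkcq sits at 1.29 and 1.12.

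Placed among the 21474 protein-coding genes by mean TPM, Etv1 ranked 5485, Kitl 6358, Ano1 6684, Kit 7603 and Prkcq 13228. Among the 13509 of these whose mean was 1 TPM or more, Kit lay above 43.7% and Etv1 above 59.4%, so 4 of the members were near the middle of the expressed genes. Prkcq lay above 2.03%. Neighbours in the order were called apart when the log2 ratio of TPM had the same sign in both libraries and its mean exceeded 3 SD. Etv1 stood 1.30-fold above Kitl (log2 0.38 ± 0.0203, SD, n = 2) in TPM, whereas counts without division by length put Kitl higher. Kitl and Ano1 did not differ beyond their spread in TPM (log2 0.13 ± 0.0847), but in counts without length Kitl was apart from Ano1 (log2 0.58 ± 0.0174). Ano1 stood 1.32-fold above Kit in TPM (log2 0.40 ± 0.00975), and this too turned in counts without length. Kit stood 10.7-fold above Prkcq (log2 3.42 ± 0.180).

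The ratio of ligand to receptor was 1.51 in replicate 1 and 1.37 in replicate 2, a mean log2 of 0.53 ± 0.0944 in TPM. In counts without length the log2 ratio was 0.48 ± 0.00321, so its direction did not rest on the length correction. The effective length assigned to Kitl rose from 4620 bases in replicate 1 to 4984 in replicate 2, as the mix of its transcripts changed, while its counts stayed at 2596 and 2567.

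Kit was divided between the forms with and without the GNNK bases, and the libraries disagreed on which was larger. Kit-201, with these bases (979 codons), held 7.94 TPM in replicate 1 and 5.25 in replicate 2, from 1194 and 767 counts. Kit-204, without them (975 codons), held 4.37 and 7.28 TPM, from 661 and 1069 counts. The form with GNNK thus made up 64.5% of the 2 coding forms in replicate 1 and 41.9% in replicate 2, a mean of 53.2% ± 15.98. The shorter form is known as the more strongly signalling receptor. The GNNK form led in one library and the shorter form in the other, while the total of the gene hardly moved.

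The shift in Kit was large beside other genes, and the quantifier's intervals for the 2 libraries overlapped. The share of Kit-201 in the gene moved by 22.6 points, more than the major transcript of 98.8% of 7785 protein-coding genes with 2 or more transcripts and a mean of 5 TPM or more, where the median shift was 2.46 points. Kit was the only one of the 4 members in that set whose major transcript differed between libraries, which happened in 6.22% of those genes. A shift of over 20 points happened in 1.84%. The deposited interval of Kit-201 ran from 5.22 to 8.79 TPM in replicate 1 and from 3.27 to 6.88 in replicate 2, and that of Kit-204 from 3.29 to 6.81 and from 5.40 to 9.07. For both transcripts the intervals of the 2 libraries overlapped, as they did for all 36 annotated transcripts of the 5 genes. The overlap was partial: the Kit-201 level in replicate 1 (7.94) lay above its replicate 2 interval, and both Kit-204 levels (4.37 and 7.28) lay outside the interval of the other library. The intervals of the major transcript were apart in 23.1% of the 7785 genes. The posterior standard deviation of the Kit-201 count was 141 and 134 reads. The 2 transcripts differ in the annotation by the 12 bases of exon 9 and by 39 bases at the 5′ end, in lengths of 5214 and 5241, so few positions separate their reads. The 4 retained-intron transcripts of Kit together held 2.85% and 4.50% of the gene.

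**Figure D2:**
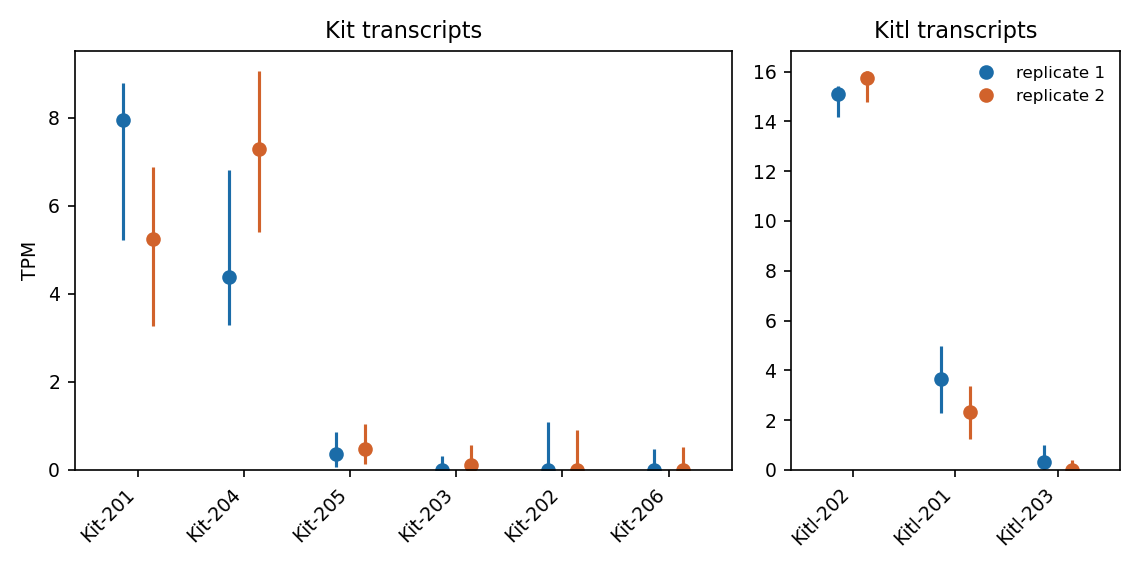
TPM of each annotated transcript of Kit (left) and Kitl (right) in replicate 1 (blue) and replicate 2 (orange); points are the deposited values and lines the quantifier's intervals. Kit-201 and Kit-204 exchange places between the libraries with overlapping intervals, whereas Kitl-202 leads in both at 15.1 and 15.7 TPM.

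Kitl was mostly the form that holds exon 6, in both libraries. Kitl-202 (273 codons) stood at 15.1 and 15.7 TPM, from 2465 and 2490 counts, and Kitl-201 (245 codons), which lacks the exon and gives a ligand that stays mainly on the membrane, at 3.67 and 2.31 TPM, from 125 and 76.7 counts. The form with exon 6 was 80.5% and 87.2% of these 2 transcripts, a mean of 83.8% ± 4.76, and 96.1% of their counts. The form with exon 6 was thus 4.12-fold above the other in replicate 1 and 6.81-fold in replicate 2. Kitl-203, which ends before exon 6 and cannot be classed, held 0.32 and 0 TPM. In the annotation, exon 6 goes together with a last exon of 4399 bases in Kitl-202, against 381 in Kitl-201, so the shares follow these 2 models as whole transcripts and not the exon alone. The share of Kitl-202 in the gene moved by 8.06 points between libraries.

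Ano1 was led by the form with the 12-base exon. The transcript ENSMUST00000121758.3 (1017 codons) stood at 10.90 and 11.50 TPM, from 1428 and 1462 counts. The other 2 full-length forms, ENSMUST00000033393.10 and ENSMUST00000118556.4, stood at 1.11 and 0.96 TPM and at 0.47 and 0.38. Of these 3 transcripts, the form with the exon held 87.3% and 89.6% (mean 88.5% ± 1.57). Over all 8 Ano1 transcripts, most of which do not cover the site, its share was 65.99%. A second alternative segment of 66 bases (chromosome 7, 144648575 to 144648640), known as segment b, is annotated only in the partial transcript ENSMUST00000152531.3, which stood at 0.99 and 1.73 TPM from 26.4 and 44.8 counts. It made up 7.35% and 11.9% of the TPM of the 4 transcripts that cover the site, but 2.13% of their counts, since that transcript is only 1004 bases long.

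Etv1 had no dominant transcript. The transcript ENSMUST00000160244.3, which lacks a 69-base exon, led at 7.50 and 6.16 TPM, 30.5% and 26.0% of the gene. The transcript with a retained intron, ENSMUST00000162730.5, held 16.9% and 23.9%, a mean above that of 77.8% of the 4489 genes with such a transcript, whose median was 6.28%. Coding transcripts that use the upstream start codon held 64.6% and 55.4% of the classed coding TPM (60.01% ± 6.46), and those that start 2807 bases downstream held the remaining 35.4% and 44.6%. Over all Etv1 transcripts the first share was 46.6%. Transcript models with each start codon thus held RNA in both libraries; translation was not measured. Prkcq was mostly Prkcq-201 (707 codons), at 1.08 TPM in each library, 83.6% and 96.3% of a gene with few reads. In posterior mean TPM the share of Prkcq-201 was 62.9% and 72.6%.

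**Figure D3:**
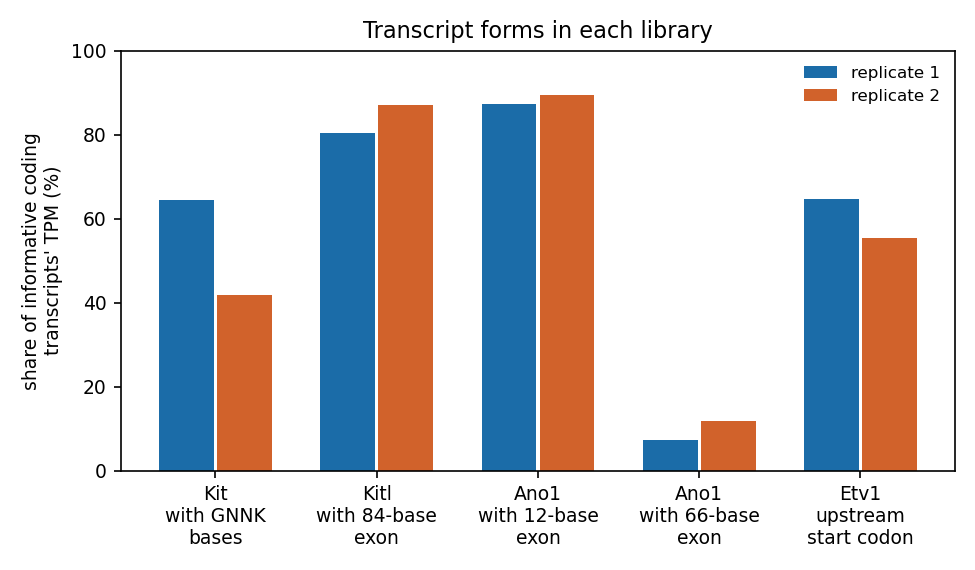
Share of TPM (%) held by the named form among the coding transcripts that can be classed, in replicate 1 (blue) and replicate 2 (orange). The Kit bars fall on both sides of 50, at 64.5% and 41.9%, while the bars of the Kitl exon and of the 12-base Ano1 exon stay above 80% in both libraries.

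Between the 2 pools, the members differed little at gene level, and so did most protein-coding genes. None of the 5 passed a 2-fold ratio of TPM, a ratio passed by 1.27% of 13509 protein-coding genes whose mean was 1 TPM or more, and none passed 1.5-fold, which 4.03% did. The ratio of replicate 2 over replicate 1 was 1.04 for Kit, 1.03 for Ano1, 0.963 for Etv1, 0.944 for Kitl and 0.868 for Prkcq. The median absolute log2 ratio was 0.05 for the members and 0.12 for the 13509 genes. It was also 0.12 for the 7251 genes with a mean TPM from 5 to 50, a range that leaves out Prkcq. On the counts of genes alone, the ratio for Kit was 1.005, with an exact 95% Clopper-Pearson interval of 0.942 to 1.07. For Etv1 it was 0.922 (0.866 to 0.981), below 1 by more than counting error, and for Prkcq 0.937 (0.718 to 1.22). These intervals cover counting error only, and the share of all genes whose interval leaves out 1 was not counted. Across the scalings tried, the ratio of Etv1 ran from 0.945 to 0.963. That of Kitl ran from 0.944 to 1.04, so it has no stable direction.

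**Figure D4:**
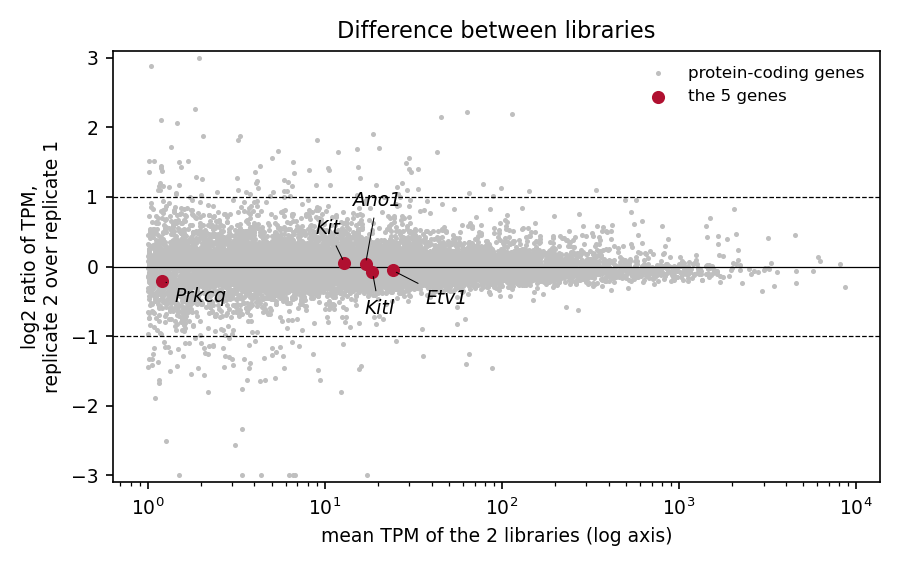
The log2 ratio of TPM, replicate 2 over replicate 1, against mean TPM (log axis) for protein-coding genes averaging 1 TPM or more (grey) and the 5 genes (red); dashed lines mark 2-fold, ratios past 3 are drawn at 3, and 5 genes at 0 in one library are left out. The 5 genes sit between -0.20 (Prkcq) and 0.05 (Kit).

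Among its relatives, Kit was the fourth of the 5 class III receptor tyrosine kinases. Csf1r, the macrophage receptor, stood at 23.0 and 27.3 TPM, and the platelet-derived growth factor receptors Pdgfrb at 22.8 and 24.1 and Pdgfra at 21.5 and 23.4. The blood progenitor receptor Flt3 stood at 0.26 and 0.28 TPM, from 27 and 28 counts. Pdgfra lies upstream of Kit on chromosome 5 (75152292 to 75198215) and the endothelial receptor Kdr downstream (75932827 to 75978458). Kdr stood at 16.6 and 18.4 TPM, so Kit was the lowest of these 3 neighbours. Pdgfra was 1.74-fold above Kit (log2 0.80 ± 0.0512). Of the 8 listed ligands of the class, 7 were matched and all 7 were detected, against 62% of all protein-coding genes. Pdgfa, at 40.4 and 40.2 TPM, was above Kitl by a log2 of 1.12 ± 0.0532, a direction that turned in counts without length. Kitl ranked second, the macrophage ligand Csf1 came next at 10.1 and 11.8 TPM, and Il34 was last at 1.75 and 2.01.

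Etv1 led the PEA3 group of ETS factors, with Etv5 at 8.78 and 9.45 TPM and Etv4 at 4.12 and 3.20. It stood 2.65-fold above Etv5 and 6.64-fold above Etv4. Of 10 anoctamins, 5 were detected, against 62% of all protein-coding genes, and Ano1 was the fourth. The lipid scramblase Ano6 stood at 34.6 and 42.6 TPM, Ano10 at 29.5 and 29.9 and Ano9 at 23.8 and 27.4, while Ano3 had 13 counts and 0. The other calcium-activated chloride channel, Ano2, stood at 1.14 and 0.77 TPM, so Ano1 was 18.1-fold above it (log2 4.18 ± 0.426). Of 9 protein kinase C genes, 8 were detected, beside the same 62% of all protein-coding genes. Prkcd led at 41.98 and 45.8 TPM, followed by the atypical forms Prkcz (28.9 and 33.9) and Prkci (21.04 and 24.8). Prkcq ranked eighth. Prkcb, at 2.30 and 4.85 TPM, passed 2-fold between libraries, as did 1.27% of protein-coding genes with a mean of 1 TPM or more.

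Genes listed as relays of the KIT signal were detected throughout, 24 of 24, at a median of 21.3 ± 1.56 TPM, against 17.1 ± 0.156 over the 13311 protein-coding genes detected. Detection held for 62% of all protein-coding genes. The kinase genes Map2k2 (181 and 191 TPM) and Mapk3 (102 and 107) were among the 3 highest, and the exchange factor Sos1 was lowest at 2.12 and 2.18. The small GTPase gene Hras, at 18.6 and 39.9 TPM, was the only relay past 2-fold between libraries. Across all 20 lists, 3 of the 133 distinct genes with a mean of 1 TPM or more passed it. Among 13509 protein-coding genes at that level, 1.27% did. All 11 brakes on the receptor were detected, at a median of 6.84 ± 0.481, led by the phosphatase genes Ptpn6 (17.4 and 19.1) and Ptpn11 (13.3 and 12.2) and by Socs1 (9.49 and 10.1). Ptpn11 is known to carry the signal to RAS as well. Lowest was the RAS inhibitor Nf1 at 2.59 and 3.02. All 7 feedback genes of MAP kinase signalling were detected. Dusp6 stood at 30.4 and 30.9 TPM, Spry2 at 25.2 and 30.3 and Spry1 at 11.5 and 9.65, and Spred1 was lowest at 3.90 and 3.92. Of 6 proteases that can shed Kit ligand, 5 were detected: Adam17 at 21.8 in both libraries, Adam9 at 18.3 and 21.8, Adam19 at 10.4 and 10.8, Mmp9 at 6.46 and 7.97 and Adam33 at 4.53 and 4.50. Adam8, at 1.05 and 0.85, was not.

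Genes for the working of the pacemaker cell were mostly detected, 18 of 20, at a median of 6.71 TPM in both libraries. Of all protein-coding genes, 62% were detected. The median was 4.45 TPM over all of these and 17.1 over those detected. The pacemaker list includes Kit and Ano1, and many of its members are also used by smooth muscle. The subunits of the nitric oxide receptor, Gucy1b1 (50.5 and 46.8 TPM) and Gucy1a1 (33.2 and 33.1), were highest, followed by the gap junction gene Gja1 (27.2 and 27.4). The substance P receptor gene Tacr1, at 0.89 and 0.67 TPM, was not detected.

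Markers of other cells that use Kit were detected in part: 4 of 8 for mast cells, 1 of 6 for melanocytes, 1 of 6 for germ cells and 5 of 7 for blood progenitors. The share over all protein-coding genes was 62%, and the counts of these short lists were not tested against it. The 8 mast cell markers had a summed level of 17.7 TPM in replicate 1 and 14.5 in replicate 2. Each of these genes alone was below Kit (12.7 and 13.1). Highest were the proteases Cpa3 (5.11 and 4.41), Cma1 (4.85 and 3.52) and Tpsb2 (3.81 and 3.17), and Mrgprb2 had 0 and 1 counts. Kit stood 2.72-fold above Cpa3 (log2 1.44 ± 0.186). Of 6 melanocyte markers, Dct was detected (1.16 and 1.10), Pmel stood at 1.09 and 0.83, while Tyr had 2 and 4 counts, Mlana 0 and 2 and Tyrp1 none. The level of the melanocyte transcription factor gene Mitf depended on the estimate. In the deposited TPM it stood at 0.88 and 0.90, but in posterior mean TPM at 17.7 and 18.2, from the same 73 and 64 counts. Kit stood at 13.1 and 13.5 in posterior mean TPM, so Mitf was below Kit by the first measure and above it by the second. Of 6 germ cell markers, Dnd1 was detected (1.02 and 1.48). Nanos3 stood at 0.54 and 0.50, Ddx4 at 0.16 and 0.21, Dazl at 0.10 in both and Pou5f1 at 0.03 and 0, and Dppa3 had no count, where a count of 0 allows up to 3. The summed level was 3.15 and 3 TPM for melanocyte and 1.85 and 2.29 for germ cell markers. The 7 blood progenitor markers had a summed level of 62.0 and 64.7 TPM. Of these, Cd34, which vessels also express, made up 48.0 and 50.6, followed by Spi1 (3.63 and 5.20) and Myb (4.03 and 3.63). Gata1, at 2.12 and 0.79 TPM, passed 2-fold between libraries, as did 1.27% of protein-coding genes with a mean of 1 TPM or more. The part of these cells in the level of Kit was not tested.

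**Figure D5:**
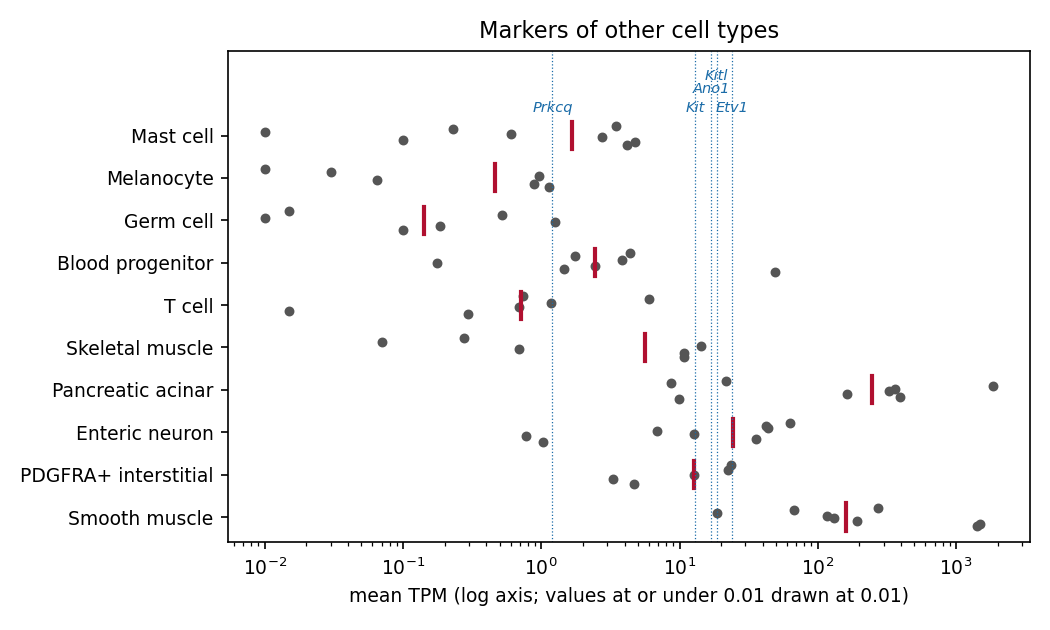
Mean deposited TPM (log axis) of each marker gene (grey points) by cell type, with the list median in red and the levels of the 5 genes as blue dotted lines; values at or under 0.01 are drawn at 0.01. All mast cell, melanocyte, germ cell and T cell markers lie left of the Kit line, though Mitf would lie right of it in posterior mean TPM (17.7 and 18.2), and the acinar and smooth muscle medians lie right of all 5 lines.

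Other cells known to use Prkcq or Ano1 were examined through their markers in the same way, beside the 62% of all protein-coding genes detected. Of 6 T cell markers, the kinase gene Lck was detected (6.80 and 5.23 TPM). Cd3g stood at 1.40 and 0.95, Cd3e at 0.51 and 0.86, Zap70 at 0.62 and 0.86, Cd247 at 0.43 and 0.16 and Cd3d at 0 and 0.03. Their sum was 9.76 and 8.09 TPM. Of 6 skeletal muscle markers, 3 were detected, Mylpf at 15.5 and 13.1, Ckm at 10.02 and 11.7 and Acta1 at 9.35 and 12.2, while Myh3 stood at 0.42 and 0.97, Myog at 0.27 and 0.28 and Myod1 at 0.04 and 0.10. Their sum was 35.6 and 38.2. Each sum is over 6 genes, so it is not a like measure to set against the single gene Prkcq. Pancreatic acinar cells, whose secretory membrane also carries ANO1, were strongly represented: all 8 markers were detected, with a summed level of 2762 and 3529 TPM, led by Ctrb1 (1610 and 2111), with Cel at 325 and 459 and Ptf1a lowest at 7.79 and 9.54. All 8 were higher in replicate 2, but as markers of 1 cell type they are not 8 separate observations. The share of all genes higher in replicate 2 was not counted. The median log2 ratio of replicate 2 over replicate 1 was -0.015 over the 13509 protein-coding genes whose mean was 1 TPM or more. The part of these cells in the levels of Prkcq and Ano1 was not tested.

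Markers for neighbours of the pacemaker cells in the gut wall were mostly detected, against 62% of all protein-coding genes. All 8 smooth muscle markers were detected at a median of 161 ± 0.746 TPM, with Actg2 (1494 and 1475), Acta2 (1469 and 1364) and Tagln (276 and 270.1) highest and Myocd lowest at 16.9 and 20.2. Of 8 enteric neuron markers, 6 were detected, with Uchl1 at 65.5 and 60.1, Stmn2 at 46.3 and 40.3 and Tubb3 at 44.9 and 38.9, and with Nos1 lowest at 0.76 and 0.78. All 5 markers of PDGFRA-positive interstitial cells were detected. Besides Pdgfrb and Pdgfra these were the purine receptor gene P2ry1 (12.6 and 13.0), Foxl1 (4.43 and 4.92) and the potassium channel gene Kcnn3 (3.21 and 3.41). P2ry1 was at a level close to that of Kit, at 12.7 and 13.1.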

How the data were processed

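Per the text deposited beside the tables, reads were assigned to GENCODE M4 on mm10; no source used here gives the aligner, the quantifier or whether strand was kept. The authors deposited expected counts (estimated reads, shared reads divided), TPM (per effective length, spike-ins included), posterior mean TPM with intervals, and, per transcript, the percent of its gene. Symbols and models came from GENCODE M21 (42462 of 43346 identifiers matched); of 36 transcripts of the members, 35 were found there, 32 at the same length. The ERCC spike-ins took 1.81% and 1.74% of counts, and 26248 features that name no gene took 0.000147% and 0.000157%.

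Levels are the mean and SD of 2 libraries. Transcript forms were classed among coding transcripts that cover the segment. Counts were rounded for edgeR 4.0.16 and DESeq2 1.42.0, used only for scaling factors (minimum 10 counts), in R 4.3.3; other steps used Python 3.11.15, pandas 2.3.3 and scipy 1.17.1. The fold call and interval were tested on simulated data. Alternatives were posterior means, counts without length, shares over all transcripts of the gene, pseudocounts, other scalings, filters and folds, and each library left out. Named genes are all members, all genes of lists of up to 6, otherwise the 3 highest and the lowest, those past 2-fold, and Kdr and Pdgfra; Ano2, Tacr1 and the transcript classes of Ano1 and Etv1 were added after their values were seen. Members and lists were chosen with earlier results of these data known. Per GENCODE M21, Ano1 and Prkcq overlap small noncoding genes, of at most 2 counts where listed. No genes of like pattern are named, since 2 libraries of 1 group give no pattern across conditions. RefSeq protein sequences were not used here. Some genes that the rule selects are not reported here.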

Additional observations from a re-analysis of the deposited data

How the results depend on the processing

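With posterior mean TPM, the mean level was 13.3 for Kit, 25.2 for Etv1 and 1.41 for Prkcq, each further from the deposited TPM than 1 SD. Rescaled to protein-coding genes only, the levels were 14.9 for Kit, 21.4 for Kitl, 19.6 for Ano1, 27.8 for Etv1 and 1.39 for Prkcq. In counts without length, log2 ratios turned to -0.37 for Etv1 over Kitl, -0.11 for Ano1 over Kit and -0.63 for Pdgfa over Kitl, and the Kitl share with the 84-base exon was 96.1%. The values in counts for Pdgfa, for the Kitl share and, given next, for Etv1 over Kit come from alternatives chosen after seeing the data. In counts without length, Kitl over Ano1 became apart (log2 0.58) and Etv1 over Kit was no longer apart (log2 0.11). Over all transcripts of the gene, also added after seeing the data, the Ano1 share with the 12-base exon was 65.99% and the Etv1 share with the upstream start 46.6%. Left out in turn, the libraries gave 41.9% to 64.5% for the Kit share with GNNK and 80.5% to 87.2% for the Kitl share. Of the 166 distinct genes matched in the 20 lists, 130 were detected, and 130 to 142 under the alternatives. Over all protein-coding genes, 62% were detected in the main setting. No paired analysis was possible because both libraries belong to a single group. An exact sign-flip test of 2 values cannot go below p = 0.5 (2-sided), and none was printed.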
